A study of Homo sapiens with 9 samples.

Results

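The genes described here are 7 matrix metalloproteinases (MMP1, MMP2, MMP3, MMP10, MMP11, MMP14 and MMP19) and 3 tissue inhibitors of metalloproteinases (TIMP1, TIMP2 and TIMP3). They were taken by gene symbol, with earlier results of these data known, and all 10 were found among the 17123 genes of the deposited table. The RNA of 9 libraries, sequenced on the BGISEQ-500, came from the human line LX-2, which was derived from hepatic stellate cells. Every culture had received TGFβ1 at 10 ng/ml, so the controls carry it too, and none of the libraries is without it. Each of the 3 groups has 3 libraries and is named by its siRNA, which was a negative control or was aimed at LOX or LOXL1. Cells were given the LOX or LOXL1 siRNA at 25 nM for 48 hours. The sources used here state neither a dose nor a time for the control siRNA. Control replicate 3 is labelled without the word siRNA and was kept in its group on its title. All libraries come from 1 cell line. Nothing in the labels says that the 3 libraries of a group are separate cultures. The p-values therefore reflect only how far libraries differ, which may be technical.

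Matrix metalloproteinases are zinc-dependent endopeptidases that cut collagens and other matrix proteins. Most are made as inactive precursors, and the TIMPs block them by binding the active site. In the liver, activated stellate cells are known as a main source of both the proteases and TIMP1, and the balance between them is a textbook feature of scar formation and resolution. The products of LOX and LOXL1 oxidise lysines in collagen and elastin, a step towards cross-linked fibres, on which these proteases act. The comparisons ask whether a partial loss of either oxidase transcript is accompanied by a change in protease or inhibitor transcripts.

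With LOX siRNA, LOX fell by 38.5% in mean FPKM (fragments scaled to transcript length and library size; limma, adjusted p = 0.000673), from 46.2 ± 2.94 (SD, n = 3) to 28.4 ± 2.67. LOXL1 was at 6.80 ± 0.997 FPKM with its own siRNA and at 12.3 ± 1.11 in controls (limma, adjusted p = 0.00432). The deposited values summed to between 384881 and 396088 FPKM per library, and 11663 to 11728 genes reached 1 FPKM. Of 14 stellate and myofibroblast markers, 10 had a mean of at least 1 FPKM, among them COL1A1, PDGFRB and ACTA2; the mean was below 1 FPKM for DES, LRAT, RGS5 and PDGFRA. Of 8 hepatocyte markers 5 were in the table, and their summed FPKM lay between 0.61 and 1.02 per library. That of 5 endothelial markers lay between 0.47 and 0.74, with no marker of either list at 0 in all libraries. Leukocyte markers, of which CD68 and CD14 reached 1 FPKM, summed to 41.5 to 48.2 FPKM with overlapping groups, and those of cholangiocytes (KRT7 and SOX9) to 13.9 to 16.9 FPKM.

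The members differed far more from each other than between groups. In order of mean FPKM over the 9 libraries they ran MMP1, TIMP1, TIMP2, MMP14, TIMP3, MMP2, MMP19, MMP3, MMP11 and MMP10. FPKM is scaled to transcript length, so these levels can be set side by side, though only roughly. Library values still followed length to differing extents, as given below with TIMP1. Each gene's lowest library lay above the highest library of the next gene in that order, except that TIMP3 (lowest 22.7 FPKM) and MMP2 (highest 23.2 FPKM) overlapped. MMP1, the interstitial collagenase that cleaves fibrillar collagens, had a mean of 460.3 FPKM and ranked 90 in the table. TIMP1 ranked 157 and TIMP2 374. At the other end, MMP11 had a mean of 0.412 FPKM and MMP10 of 0.0322.

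**Figure D1:**
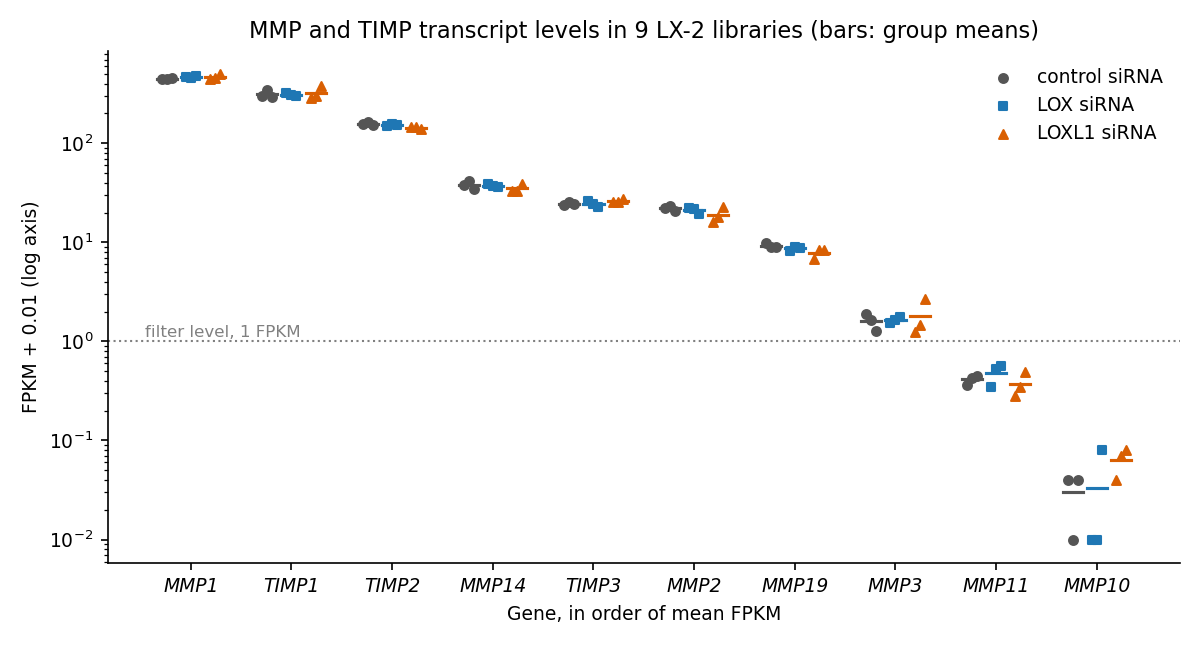
FPKM plus 0.01 on a log axis for each of the 10 genes, with 1 point per library, a short bar for each group mean and a dotted line at the filter level of 1 FPKM. Levels run from 443.89 to 499.68 FPKM for MMP1 down to 0 to 0.07 FPKM for MMP10. The 3 siRNA groups of a gene lie close together, except for MMP10 near the floor. Its group means are 0.02, 0.0233 and 0.0533 FPKM with control, LOX and LOXL1 siRNA.

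Among the collagen-cleaving enzymes, MMP1 had 449, 444 and 453 FPKM in control libraries 1 to 3. With LOX siRNA it had 463, 452 and 476 FPKM, and with LOXL1 siRNA 448, 458 and 499.7 FPKM. The groups overlapped in both comparisons with control, and the highest value belonged to LOXL1 siRNA replicate 3. The difference of mean log2(FPKM + 1), here called log2 fold change, was 0.05 for LOX siRNA against control (SE 0.04, 95% interval -0.04 to 0.14; limma, adjusted p = 0.836). For LOXL1 siRNA against control it was 0.06 (SE 0.04, 95% interval -0.03 to 0.15; limma, adjusted p = 0.643). With length and GC trends of each library removed, the MMP1 values were 0.0037 and 0.04 (limma, adjusted p = 0.995 and 0.772). The upper bounds of the intervals above, which are unadjusted here and below, correspond to 1.10-fold and 1.11-fold of FPKM + 1.

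MMP14, a membrane-anchored collagenase that also activates the precursor of MMP2 at the cell surface, had 37.5, 41.2 and 34.8 FPKM in controls. It had 38.8, 37.1 and 35.8 FPKM with LOX siRNA and 33.2, 33.1 and 39.0 FPKM with LOXL1 siRNA. Controls span the whole LOX siRNA group, and LOXL1 siRNA replicates 1 and 2 lay below every other library while replicate 3 lay among the controls. The log2 fold change was -0.02 for LOX siRNA (SE 0.07, 95% interval -0.17 to 0.13; limma, adjusted p = 0.972) and -0.11 for LOXL1 siRNA (SE 0.07, 95% interval -0.25 to 0.04; limma, adjusted p = 0.613).

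MMP2, gelatinase A, which cuts denatured collagen and basement membrane collagen, had 22.4, 23.2 and 20.9 FPKM in controls. With LOX siRNA it had 22.2, 21.5 and 19.4 FPKM, and with LOXL1 siRNA 15.9, 18.2 and 22.6 FPKM. LOXL1 siRNA replicates 1 and 2 were the lowest of the 9 libraries, and replicate 3 lay within the control range, so the groups overlapped. The log2 fold change was -0.07 for LOX siRNA (SE 0.09; limma, adjusted p = 0.909). For LOXL1 siRNA it was -0.23 (SE 0.09, 95% interval -0.44 to -0.03; limma, unadjusted p = 0.0278, adjusted p = 0.424). Without LOXL1 siRNA replicate 3 the value for MMP2 was -0.36 (SE 0.07; limma, adjusted p = 0.0743). Without LOXL1 siRNA replicate 1 it was -0.12 (SE 0.08; limma, adjusted p = 0.750), and over all 9 fits that left out 1 library the adjusted p ranged from 0.0743 to 0.750.

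MMP19, a protease of the basement membrane and stroma, had 9.84, 8.90 and 8.92 FPKM in controls. It had 8.16, 9.01 and 8.82 FPKM with LOX siRNA and 6.81, 8.27 and 8.41 FPKM with LOXL1 siRNA. All 3 LOXL1 siRNA libraries lay below all 3 controls, and the LOX siRNA libraries overlapped both groups. The log2 fold change was -0.21 for LOXL1 siRNA against control (SE 0.07, 95% interval -0.37 to -0.06; limma, unadjusted p = 0.0106, adjusted p = 0.327). For LOX siRNA it was -0.08 (SE 0.07; limma, adjusted p = 0.843). Over the fits that left out 1 library, the value of MMP19 for LOXL1 siRNA ran from -0.26 without LOXL1 siRNA replicate 3 to -0.13 without LOXL1 siRNA replicate 1, and its adjusted p (limma) from 0.255 to 0.685.

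The stromelysins were low. MMP3, stromelysin 1, which cuts proteoglycans and activates other precursors, had 1.86, 1.62 and 1.26 FPKM in controls, 1.52, 1.65 and 1.77 FPKM with LOX siRNA and 1.23, 1.44 and 2.67 FPKM with LOXL1 siRNA. LOXL1 siRNA replicates 1 and 3 held the lowest and the highest value of all 9. Its intervals were the widest of the 8 tested members, from -0.28 to 0.37 on the log2 scale for LOX siRNA against control and from -0.25 to 0.40 for LOXL1 siRNA. MMP11, stromelysin 3, which lies on an alternate contig of chromosome 22 in the table, had 0.35, 0.42 and 0.44 FPKM in controls, 0.34, 0.52 and 0.55 with LOX siRNA and 0.27, 0.34 and 0.48 with LOXL1 siRNA. MMP10, stromelysin 2, was listed at 0 in control replicate 2 and LOX siRNA replicates 1 and 2, and had 0.03, 0.06 and 0.07 FPKM with LOXL1 siRNA, 0.03 in the other controls and 0.07 in LOX siRNA replicate 3. Across 1079 scarce single-transcript genes, the lowest value above 0 times transcript length had a median of 57.8; read as 1 fragment, that makes 0.0329 FPKM of MMP10 a single fragment. On that reading MMP10 rests on 0 to 2 fragments per library, MMP11 on 11 to 22 and MMP3 on 41 to 88. MMP10 and MMP11 never reached 1 FPKM, the level required in at least 3 libraries for testing, and 8 of the 10 members were tested. With the filter dropped, MMP11 had a log2 fold change of 0.06 for LOX siRNA and -0.04 for LOXL1 siRNA against control (SE 0.07; limma, adjusted p = 0.902 and 0.890). MMP10 had 0.0041 and 0.05 (SE 0.03; limma, adjusted p = 1 and 0.705).

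MMP1, MMP3 and MMP10 are neighbours in a cluster of metalloproteinase genes on the minus strand of chromosome 11. In the table's coordinates, which follow GRCh38, MMP10 spans 102770502 to 102780628, MMP1 102789910 to 102798235 and MMP3 102835797 to 102843689. MMP10 and MMP1 are 9.28 kb apart, and MMP1 and MMP3 37.6 kb apart. MMP1 stood at 276 times the mean FPKM of MMP3, with a range of 187 to 365 over the 9 libraries. The other 3 genes of the cluster in the table were near 0, with means of 0.111 FPKM for MMP7, 0.0511 for MMP8 and 0.00222 for MMP13, a collagenase that was listed at 0 in 8 of 9 libraries. RefSeq lists 10 protein-coding MMP genes on chromosome 11, of which 6 were in the table. Among those 6, high expression belonged to MMP1 in all 9 libraries, whichever siRNA had been given.

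**Figure D2:**
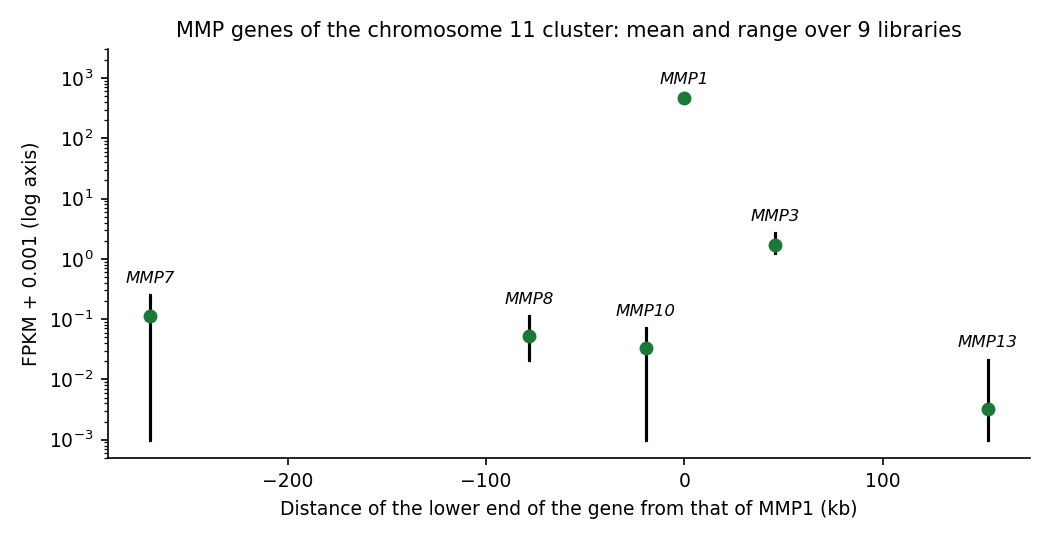
Mean FPKM plus 0.001 on a log axis (points) with the range over 9 libraries (lines) for 6 metalloproteinase genes of chromosome 11, set by distance in kb from MMP1. MMP1 has a mean of 460.3 FPKM, MMP3 of 1.67 FPKM, and the other 4 genes lie at 0.111 FPKM or lower.

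Promoter windows from RefSeq (GRCh38.p14), 250 bases before to 50 after the start, were matched for 5 members, MMP10, MMP11, MMP14, TIMP1 and TIMP3. The 2 members below the filter and the most abundant member with a window are shown to set sequence beside level. Capitals mark the AP-1 word TGANTCA, the ETS word AGGAAG, the TATA word TATAAA and the GC box GGGCGG, each searched on both strands. N stood for any base, which is wider than the AP-1 site TGAGTCA or TGACTCA. The windows lie at chr11:102780579-102780878 on the minus strand (MMP10), chr22:23772599-23772898 on the plus strand (MMP11) and chrX:47582186-47582485 on the plus strand (TIMP1), read 5′ to 3′.
MMP10: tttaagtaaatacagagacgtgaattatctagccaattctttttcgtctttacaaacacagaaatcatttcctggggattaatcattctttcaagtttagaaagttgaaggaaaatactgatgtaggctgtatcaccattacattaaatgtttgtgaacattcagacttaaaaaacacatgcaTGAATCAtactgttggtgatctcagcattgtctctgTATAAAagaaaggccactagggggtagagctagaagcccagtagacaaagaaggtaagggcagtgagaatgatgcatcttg
MMP11: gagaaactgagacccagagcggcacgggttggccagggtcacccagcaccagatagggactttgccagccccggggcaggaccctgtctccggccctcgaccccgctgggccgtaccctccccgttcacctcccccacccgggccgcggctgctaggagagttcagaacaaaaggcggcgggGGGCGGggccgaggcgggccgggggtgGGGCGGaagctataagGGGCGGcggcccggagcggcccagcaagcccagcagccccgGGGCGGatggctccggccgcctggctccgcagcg
TIMP1: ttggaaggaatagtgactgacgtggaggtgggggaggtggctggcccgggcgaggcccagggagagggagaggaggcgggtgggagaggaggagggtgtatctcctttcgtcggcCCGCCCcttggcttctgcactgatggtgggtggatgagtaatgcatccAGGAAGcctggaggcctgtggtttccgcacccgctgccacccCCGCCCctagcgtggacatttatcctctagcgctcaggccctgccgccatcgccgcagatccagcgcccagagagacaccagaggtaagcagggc
The MMP10 window, 36.3% G or C, held an AP-1 word that begins at position -67 and a TATA word at -31, counted from the start site as 1. That AP-1 word reads TGAATCA, which is neither TGAGTCA nor TGACTCA. The MMP11 window, 74.3% G or C, held 4 GC boxes, at -68, -41, -25 and 17. TIMP1 held an ETS word at -87 and GC boxes at -135 and -45. MMP14 had 1 GC box and TIMP3 had 5. Of the 13667 genes in the expression table with a window, 5.29% held the AP-1 word, 33.3% the ETS word, 7.74% the TATA word and 63.4% a GC box. Among the 5 members with a window, MMP10 alone held the word TGANTCA or the TATA word, and it had the lowest FPKM of the 5. No window was matched for MMP1, MMP2, MMP3, MMP19 and TIMP2, so the most abundant member is not covered. Near matches, such as tgagtaa in the TIMP1 window, are not marked. A window without the word may therefore hold a related site. Word matches describe the sequence and were not tested against expression.

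Turning to the inhibitors, TIMP1, the secreted inhibitor best known from liver scarring, had 299, 342 and 292 FPKM in controls. With LOX siRNA it had 321, 303 and 298 FPKM, and with LOXL1 siRNA 284, 301 and 380.4 FPKM. The LOXL1 siRNA group held both the lowest and the highest value, and all groups overlapped. Group means were 311 ± 27.1, 308 ± 11.7 and 322 ± 51.4 FPKM (SD, n = 3) in the order control, LOX siRNA and LOXL1 siRNA. The 95% interval of the log2 fold change ran from -0.21 to 0.18 for LOX siRNA against control and from -0.15 to 0.23 for LOXL1 siRNA against control. TIMP1 has the shortest transcript of the 10 members, 916 bases, and libraries differed in how their values followed transcript length. Spearman's rho across genes between a library's deviation from the gene mean and length was 0.376, -0.166 and 0.138 in controls 1 to 3, -0.285, -0.279 and -0.249 with LOX siRNA and 0.308, 0.197 and -0.0489 with LOXL1 siRNA. The part of this trend in the TIMP1 values was not tested; with length and GC trends removed, its log2 fold change was 0.08 for LOXL1 siRNA against control (limma, adjusted p = 0.772). It was then -0.05 in place of -0.01 for LOX siRNA against control and -0.12 in place of -0.05 between the knockdowns (limma, adjusted p = 0.948 and 0.523).

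TIMP2, which inhibits MMPs and also bridges MMP14 to the precursor of MMP2, had the smallest SE of the 8 tested members. It had 158, 163 and 151 FPKM in controls, 150.4, 157 and 154 FPKM with LOX siRNA and 145, 147 and 139 FPKM with LOXL1 siRNA. All 3 LOXL1 siRNA libraries lay below all 6 others. The mean was 143 ± 3.95 FPKM with LOXL1 siRNA against 157 ± 6.01 in controls, 8.90% less, with a log2 fold change of -0.13 (SE 0.04, 95% interval -0.22 to -0.05). TIMP2 had the smallest p of the members in this comparison and ranked 177 of 11808 genes (limma, unadjusted p = 0.00389), and it did not pass after adjustment (adjusted p = 0.259). Against LOXL1 siRNA, LOX siRNA gave a log2 fold change of 0.10 (SE 0.04, 95% interval 0.02 to 0.18; limma, unadjusted p = 0.0206, adjusted p = 0.296). For LOX siRNA against control it was -0.03 (SE 0.04; limma, adjusted p = 0.890). With length and GC trends removed, the value for LOXL1 siRNA against control was -0.10 (limma, adjusted p = 0.284).

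TIMP3, an inhibitor that stays bound to the matrix and also blocks ADAM proteases, had 23.8, 25.6 and 24.5 FPKM in controls, 25.8, 24.2 and 22.7 FPKM with LOX siRNA and 25.5, 25.8 and 27.6 FPKM with LOXL1 siRNA. The groups overlapped, with LOXL1 siRNA replicate 3 highest and LOX siRNA replicate 3 lowest. The log2 fold change was 0.09 for LOXL1 siRNA against control (SE 0.05; limma, adjusted p = 0.570) and -0.02 for LOX siRNA against control (SE 0.05; limma, adjusted p = 0.949). Between the knockdowns it was -0.11 (SE 0.05, 95% interval -0.22 to -0.0021; limma, adjusted p = 0.384).

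Counted over the 8 tested members, 0 passed at an adjusted p of 0.05 in any of the 3 comparisons. Over all 11808 tested genes the test called 0.00847% with LOX siRNA and 0.0762% with LOXL1 siRNA, each against control, and 0.212% between the knockdowns. At an unadjusted p under 0.05 the members numbered 0, 3 (MMP2, MMP19 and TIMP2) and 2 (TIMP2 and TIMP3) in the same order, where all tested genes gave 6.93%, 10.2% and 12.8%. Groups did not overlap for 0 members, 2 members (MMP19 and TIMP2, both lower) and 1 member (TIMP2, higher with LOX siRNA), beside 12.8%, 14.3% and 21.5% of all tested genes. By direction, all tested genes gave 6.78% higher and 5.97% lower for LOX siRNA, 5.74% higher and 8.57% lower for LOXL1 siRNA, and 12.1% higher and 9.41% lower for LOX against LOXL1 siRNA. The median log2 fold change of the members was -0.02, -0.03 and 0.04, against 0.0035, -0.0058 and 0.01 over all tested genes. The comparisons with control share the same 3 control libraries.

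**Figure D3:**
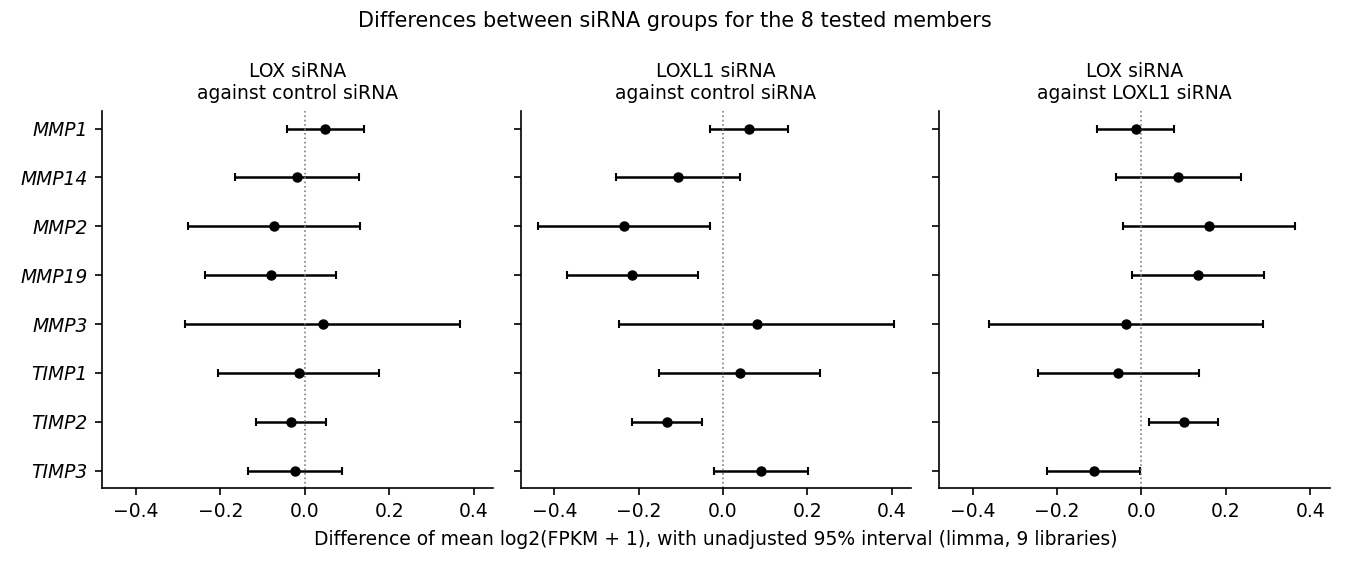
Difference of mean log2(FPKM + 1) with its unadjusted 95% interval for the 8 tested members in 3 comparisons, from 1 limma model of 9 libraries. Intervals for LOX siRNA against control all include 0, and those of MMP2, MMP19 and TIMP2 for LOXL1 siRNA against control lie below 0 before adjustment, with adjusted p of 0.424, 0.327 and 0.259.

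Library by library, LOXL1 siRNA replicates 3 and 1 lay at opposite ends of their group for most of these genes. Replicate 3 was the highest of its group for 9 of the 10 members, all but TIMP2, while it was the highest of its group for 36.1% of all tested genes. On the log2(FPKM + 1) scale it exceeded its group mean by 0.44 for MMP3, 0.26 for MMP2, 0.25 for TIMP1 and 0.15 for MMP14. MMP9, gelatinase B and not a member, had 5.56 FPKM in that library, the highest of the 9, and 1.77 FPKM in the lowest. LOXL1 siRNA replicate 1 was the lowest of its group or level with the lowest for MMP1, MMP2, MMP3, MMP10, MMP11, MMP19, TIMP1 and TIMP3. The median absolute difference of LOXL1 siRNA replicate 3 from the mean of its partners was 0.187 over the tested members and 0.0635 over all tested genes. For LOXL1 siRNA replicate 1 these values were 0.182 and 0.0567. Without LOXL1 siRNA replicate 3 the log2 fold change for LOXL1 siRNA against control was -0.14 for MMP3 in place of 0.08. For TIMP1 it was -0.09 in place of 0.04. Without LOXL1 siRNA replicate 1 these values were 0.22 for MMP3 and 0.12 for TIMP1.

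**Figure D4:**
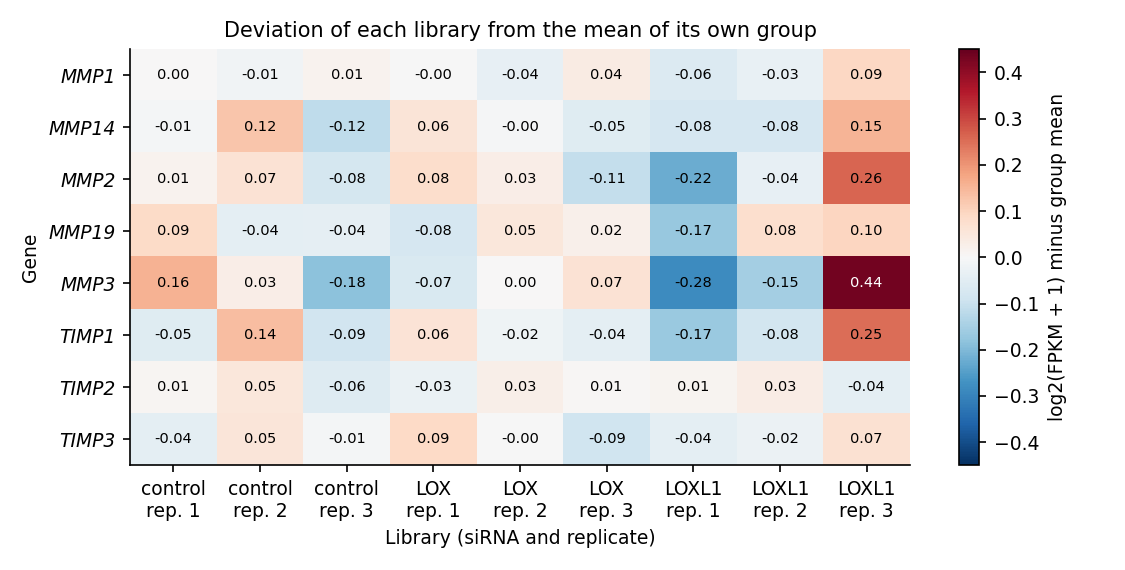
Log2(FPKM + 1) of each library minus the mean of its own siRNA group (colour and printed value) for the 8 tested members. LOXL1 siRNA replicate 3 is above its group mean for 7 of the 8 genes, reaching 0.44 for MMP3, and TIMP2 stays within 0.06 of its group mean in all 9 libraries.

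The balance of inhibitor to protease transcripts was taken as the summed FPKM of TIMP1, TIMP2 and TIMP3 over that of the 7 MMP members. The ratio was 0.925, 1.02 and 0.901 in controls, 0.930, 0.928 and 0.877 with LOX siRNA and 0.898, 0.913 and 0.955 with LOXL1 siRNA. The groups overlapped throughout, with the highest value in control replicate 2 and the lowest in LOX siRNA replicate 3. Means were 0.950 ± 0.0646, 0.911 ± 0.0302 and 0.922 ± 0.0296 (SD, n = 3). On the log2 scale the mean ratio differed from control by -0.06 with LOX siRNA and by -0.04 with LOXL1 siRNA, where the pooled SD within groups was 0.0676; as a score over chosen genes it was given no test. With control replicate 2 left out the differences were -0.0029 and 0.01.

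MMP1 made up 85.5% to 88.7% of the summed MMP FPKM. TIMP1 made up 62.2% to 69.6% of the summed TIMP FPKM, TIMP2 25.4% to 32.9% and TIMP3 4.77% to 5.60%. MMP14 held 6.38% to 7.94% of the MMP sum and MMP2 3.14% to 4.47%. The ratio of TIMP1 to MMP1 ran from 0.627 to 0.771 over the 9 libraries, with overlapping groups. The MMP sum was 521.97 to 542.48 FPKM with LOX siRNA, above the controls at 519.2 to 520.51 FPKM, and was not tested. MMP1, the bulk of that sum, overlapped between these groups (452.2 FPKM in LOX siRNA replicate 2, 452.9 FPKM in control replicate 3). Groups did not overlap for 12.8% of all tested genes in this comparison, 6.78% being higher with LOX siRNA. With length and GC trends of each library removed, the MMP1 log2 fold change in this comparison was 0.0037 in place of 0.05. The MMP sum of the LOXL1 siRNA libraries spanned 505.85 to 572.9 FPKM.

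With MMP1 left out, the ratio of the 3 TIMPs to the other 6 MMPs was 6.69, 7.04 and 7.06 in controls, 6.99, 6.94 and 7.15 with LOX siRNA and 7.92, 7.71 and 7.47 with LOXL1 siRNA. All 3 LOXL1 siRNA libraries then lay above all 6 others. The mean of this ratio was 7.70 ± 0.224 with LOXL1 siRNA, 7.03 ± 0.111 with LOX siRNA and 6.93 ± 0.209 in controls (SD, n = 3). It was not tested. Genes without overlap made up 14.3% of all tested genes for LOXL1 siRNA against control, 5.74% being higher. Between the knockdowns they made up 21.5%, with 9.41% lower with LOX siRNA. The direction depended on the gene left out. For LOXL1 siRNA against control the log2 difference was 0.152 without MMP1 and -0.13 without TIMP1. None of the 8 tested members, MMP1 among them, passed the test. The share of MMP19 in the MMP sum was 1.35% to 1.59% with LOXL1 siRNA and 1.71% to 1.89% in controls, and that of MMP2 3.14% to 3.94% and 4.02% to 4.47%. These shares were not tested. In FPKM, MMP2 overlapped, with 22.59 in LOXL1 siRNA replicate 3 and 20.89 to 23.23 in controls. That library also had the highest MMP1, 499.68 FPKM, which enters the sum.

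**Figure D5:**
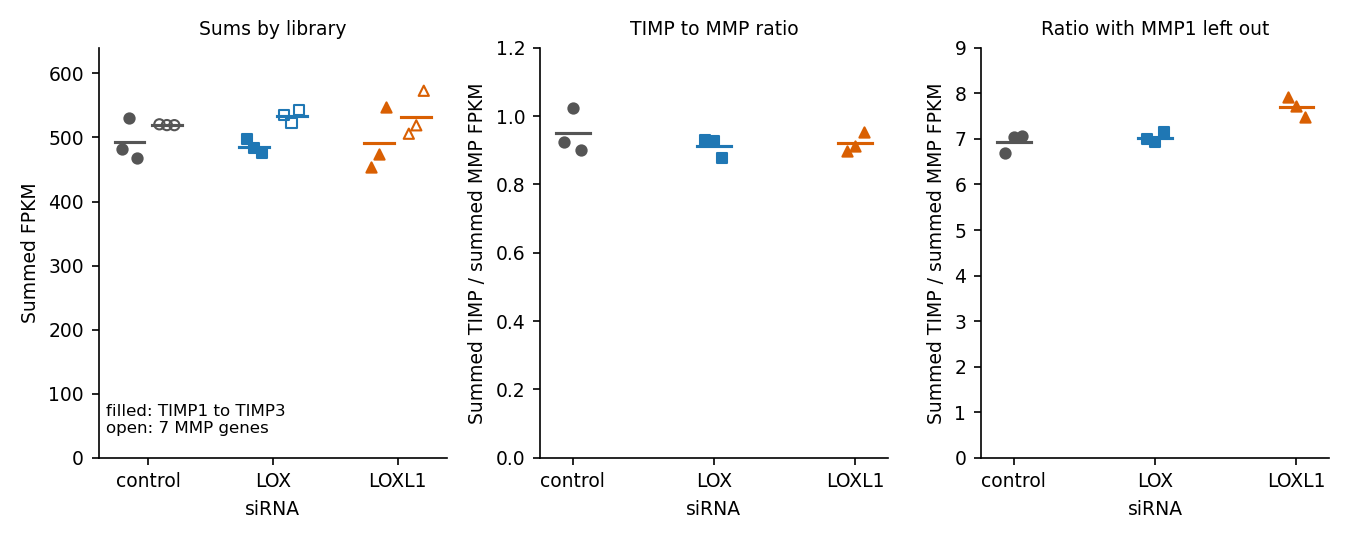
Left, summed FPKM per library of the 3 TIMPs (filled) and the 7 MMPs (open); middle, their ratio; right, the ratio with MMP1 left out; 3 libraries per siRNA group with bars for group means. The ratio lies between 0.877 and 1.02 with overlapping groups, and without MMP1 the LOXL1 siRNA libraries lie at 7.47 to 7.92, above the other 6. Neither ratio was tested.

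MMP14, TIMP2 and the precursor of MMP2 form a complex at the cell surface. TIMP2 stood at 3.95 to 4.35 times MMP14 in FPKM in controls, 3.88 to 4.31 times with LOX siRNA and 3.56 to 4.43 times with LOXL1 siRNA. The ratio of MMP14 to MMP2 was 1.66 to 1.78 in controls, 1.73 to 1.85 with LOX siRNA and 1.73 to 2.09 with LOXL1 siRNA. All groups overlapped in both ratios. These are ratios of transcripts and give no protein amounts or activity.

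Other genes of the pathway were taken from 8 lists with 112 genes, of which 71 were tested and 0 passed in any comparison. The smallest adjusted p was 0.532 with LOX siRNA and 0.270 with LOXL1 siRNA, each against control, and 0.146 between the knockdowns (limma). Of these 71 genes, 53 (74.65%) had a log2 fold change below 0 for LOXL1 siRNA against control (median -0.04). Over all tested genes that share was 53.3%. For LOX siRNA against control 43 (60.56%) lay below 0 (median -0.01), beside 47.8% of all tested genes. Between the knockdowns 26 (36.62%) lay below 0 (median 0.02), beside 44.3%. Among 12 other MMPs in the table, 5 were tested. MMP9 had means of 3.96 ± 0.338, 3.54 ± 0.723 and 3.33 ± 1.98 FPKM with control, LOX and LOXL1 siRNA, the membrane-type MMP15 3.01 ± 0.286, 2.67 ± 0.301 and 2.76 ± 0.235 FPKM, and MMP25 1.59 ± 0.157, 1.40 ± 0.0950 and 1.32 ± 0.119 FPKM. RECK, a membrane-anchored MMP inhibitor, had 3.05 ± 0.247, 3.19 ± 0.282 and 3.24 ± 0.346 FPKM, while TIMP4 did not exceed 0.07 FPKM in any library. The 7 member proteases made up 97.2% of the summed FPKM of the 19 MMP genes in the table.

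Of 12 tested ADAM and ADAMTS genes, ADAMTS2, which trims the propeptide of procollagen, had 1.71 ± 0.189 FPKM in controls and 1.23 ± 0.182 with LOXL1 siRNA (log2 fold change -0.28, limma, adjusted p = 0.324). ADAMTS1 had a log2 fold change of -0.18 and ADAMTS12 of -0.10 between LOX and LOXL1 siRNA (limma, adjusted p = 0.266 and 0.307). Among 6 tested activators of MMP precursors, PLAT, tissue plasminogen activator, had 22.1 ± 1.27 FPKM in controls, 20.0 ± 0.379 with LOX siRNA and 20.3 ± 0.888 with LOXL1 siRNA. CTSB, the lysosomal protease cathepsin B, had 48.3 ± 1.85, 48.1 ± 1.27 and 45.3 ± 0.949 FPKM and PCSK7, a proprotein convertase, 21.9 ± 0.913, 22.9 ± 0.703 and 21.5 ± 0.644 FPKM in the same order. Of 10 surface and clearance genes, MRC2, a collagen uptake receptor, had a log2 fold change of -0.12 for LOXL1 siRNA against control (limma, adjusted p = 0.337). LRP1, the endocytic receptor that clears MMPs and TIMPs, had -0.14 for LOX siRNA and -0.13 for LOXL1 siRNA against control (limma, adjusted p = 0.701 and 0.488). CD44, a hyaluronan receptor, had 179 ± 5.94, 169 ± 5.48 and 177 ± 3.10 FPKM.

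Among 15 tested transcription factors with binding sites in MMP genes, FOSL2, an AP-1 subunit, had 26.5 ± 1.18 FPKM in controls and 23.5 ± 0.648 with LOX siRNA, a log2 fold change of -0.17 (SE 0.04; limma, adjusted p = 0.532). ETS1 had 57.2 ± 0.478, 57.3 ± 1.78 and 61.6 ± 1.57 FPKM and CEBPB 125 ± 0.931, 124 ± 5.19 and 117 ± 3.95 FPKM in the order control, LOX siRNA and LOXL1 siRNA. Of 6 tested cytokines, the ligand gene TGFB1 had a log2 fold change of -0.13 for LOXL1 siRNA against control (limma, adjusted p = 0.381), LIF of -0.15 (0.701) and IL1A of -0.15 (0.645). Of 16 tested matrix substrates, 3 had the smallest p for LOX siRNA against LOXL1 siRNA. They were the basement membrane chain COL4A1 (log2 fold change 0.21, limma, adjusted p = 0.151), the glycoprotein TNC (-0.18, adjusted p = 0.146) and the proteoglycan VCAN (-0.19, adjusted p = 0.146).

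MMP19 and TIMP2 had the smallest p over the 3 groups among the proteases and the inhibitors (limma moderated F, unadjusted p = 0.0320 and 0.0102). The tested genes with the pattern most like MMP19 over the 9 libraries were GALNT7, SHC2, ANKS3, NBPF8 and SEC61A2, with Pearson's r of log2(FPKM + 1) of 0.905 to 0.931. For TIMP2 they were PACSIN3, NMU, PLSCR3, GDPD5 and ITGA3, with r of 0.936 to 0.978. Among all tested genes, 7 reached an r of 0.9 with MMP19 and 29 with TIMP2. These values describe the 9 libraries and include the differences between groups.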

How the data were processed

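RNA of 9 LX-2 libraries was measured by sequencing. The authors deposited a table of 17123 genes whose values are FPKM, per the file headers. TopHat2 2.0.10 and hg19 appear in the submitters' processing notes; the sources used here do not name the program behind FPKM. Gene starts in the table lay within 5000 bases of a GRCh38.p14 gene table for 91.4% of 17083 matched genes, so positions are read as GRCh38. Transcript lengths, given by the authors in a column of the deposited table under the file header for maximum transcript length, were used in a trend correction and are no measurement or score.

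FPKM was analysed as log2(FPKM + 1). Genes at 1 FPKM or more in at least 3 of 9 libraries were tested, 11808 in all. A limma model of 3 groups (limma 3.58.1, R 4.3.3, mean-variance trend, 6 residual degrees of freedom) was fitted over all libraries, with Benjamini-Hochberg adjustment over all tested genes and a threshold of 0.05; the code was tested on simulated data. With 3 libraries against 3 an exact permutation test cannot give p under 0.1. The pseudocount understates changes of low genes. The table holds no counts, so no counting interval is given. Named genes were the members, both targets, up to 3 genes of smallest p per list and the 5 genes most like 2 members. Members and lists were chosen with earlier results of these data known. Alternatives were the filter, pseudocount, scaling, compared groups alone, a replicate block, removal of length and GC trends (natural splines, 4 degrees of freedom, 99.8% of tested genes) and each library left out. Figures were drawn with matplotlib 3.10.9 and Python 3.11.15. Protein sequences were not used here.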

Additional observations from a re-analysis of the deposited data

How the results depend on the processing

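For the 8 tested members, 24 log2 fold changes were refitted under 16 alternatives, which gave 381 values; 0 passed, the smallest adjusted p being 0.0743 (MMP2, LOXL1 siRNA against control, without LOXL1 siRNA replicate 3). The sign changed in 17 of these values, all for differences of at most 0.0793 in size. With length and GC trends removed, the LOX siRNA value was -0.0013 for MMP3 and 0.0045 for MMP14. With each library left out, values for LOX siRNA against control ran from -0.0497 to 0.120 for MMP3, -0.0764 to 0.0438 for MMP14, -0.0581 to 0.0554 for TIMP1 and -0.0691 to 0.0214 for TIMP3. For LOXL1 siRNA against control they ran from -0.14 to 0.22 for MMP3 and -0.0864 to 0.124 for TIMP1, and between the knockdowns from -0.0439 to 0.0339 for MMP1, -0.18 to 0.18 for MMP3 and -0.138 to 0.0716 for TIMP1. The libraries whose removal changed a sign were control replicates 2 and 3, LOX siRNA replicates 2 and 3 and LOXL1 siRNA replicate 3. The balance moved by more than 1 within-group SD when MMP1 was left out (log2 difference 0.0209 with LOX siRNA and 0.152 with LOXL1 siRNA, each against control, and -0.131 between them), when TIMP1 was left out (-0.13 for LOXL1 siRNA against control and 0.0662 between them) and with equal weights (0.0574 for LOXL1 siRNA against control). Over all genes, calls numbered 1 with LOX siRNA and 9 with LOXL1 siRNA, each against control, and 25 between the knockdowns. Without the filter they were 2 and 4 for the first and the last, with length and GC trends removed 23 for LOXL1 siRNA, and with each library left out 1 to 2, 6 to 14 and 5 to 56 in that order. The highest of these counts came without LOX siRNA replicate 1, LOXL1 siRNA replicate 3 and control replicate 2, and the 5 without LOX siRNA replicate 2 or 3. The causes of these changes were not tested. Replicate numbers did not pair the libraries (0 of 9 correlated best with their own number), and with a replicate block the knockdowns differed in 15 genes, with no member among them.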
